A study of Mus musculus with 10 samples.

Results

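Whether a diet with aspirin leaves the colon of carcinogen-treated mice different from a diet without it was examined in 8 of the 10 RNA-seq libraries of the series. The 4 aspirin-containing libraries were those of the groups ASA and ASA+CUR, and the 4 aspirin-free ones were those of Model and CUR, as the sample titles name them. All 8 came from C57BL/6 mice that received azoxymethane (AOM, a colon carcinogen) at 10 mg/kg at 6 weeks of age and dextran sulfate sodium (DSS, a polymer that injures the colon lining) at 1.2% in the drinking water for 7 days from a week later. Model mice ate the AIN-93M diet alone. The ASA diet held 0.02% aspirin, the CUR diet 2% curcumin, and the ASA+CUR diet 0.01% aspirin with 1% curcumin. Between ASA+CUR and CUR the curcumin dose therefore differed as well as aspirin. The 2 Control libraries came from mice given saline and the same base diet without AOM, DSS, aspirin or curcumin. They serve below as a reference level, and their spread is part of the pooled spread behind the standard errors and p-values. The labels call the tissue of the 8 libraries tumor samples, while the protocol describes the right portion of the colon frozen after the proximal end and the palpable tumours had been removed. The labels give neither the age at sacrifice nor the number of mice behind each library. Spread between the 2 libraries of a group may therefore be technical, and the p-values rest on that spread.

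Aspirin acetylates the cyclooxygenases, encoded by Ptgs1 and Ptgs2, and so blocks the first step from arachidonic acid to the prostaglandins and thromboxane. Prostaglandin E2, made by Ptges and degraded by Hpgd, supports epithelial repair and is abundant in inflamed colon and in colon tumours. Esterases of gut and liver cleave aspirin to salicylate, which is then conjugated and excreted.

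Expression was measured as FPKM (fragments normalised to transcript length and to the total of mapped fragments), summed over the transcripts of a gene, and differences were taken on the scale log2(FPKM + 1) with limma's standard error. The FPKM values of a library summed to 515959 to 543012 with aspirin, 553524 to 719051 without it, and 720895 and 639954 in Control. Ribosomal protein genes held 13.1% to 13.9% of the sum with aspirin, 14.7% to 16.7% without it, and 13.2% and 14.1% in Control. The sides did not overlap in either measure. Other scalings of the libraries are among the alternatives below, and beyond them the part of this in the gene differences was not tested. In each library 12781 to 13283 genes reached 1 FPKM. Read totals are unknown, since FPKM removes them. Intestinal genes were present throughout, with Krt8, a keratin of simple epithelium, between 1796 and 4626 FPKM. The libraries differed in genes of colon position. The mean of Hoxd10, Hoxd11 and Hoxd12, homeobox genes of the hind end of the body axis, was 7.21 FPKM in ASA replicate 0, 11.8 and 13.3 in ASA+CUR and 8.30 in CUR replicate 1, and at most 0.771 in the other AOM/DSS libraries and in Control. Cdx2, an intestinal homeobox gene, was lower in those same 4 libraries, at 5.22 to 11.4 FPKM against 61.1 to 125.5 in the other 4. A high Hoxd level was thus found in 3 of 4 aspirin-containing and 1 of 4 aspirin-free libraries. CUR replicate 0 stood apart in another way, with 2215 FPKM of the colonocyte carbonic anhydrase Car1 against 124.2 to 504.9 in the other 7. Of the named genes described below, 12 had opposite directions in the 2 Hoxd classes by the mean of log2(FPKM + 1). Their class means stand beside them in FPKM, with aspirin first. For Ptgs1 and Gm12250 these FPKM means ran the same way in both classes. The limit of 2 FPKM between the classes was chosen after the values were seen.

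Aspirin-containing and aspirin-free libraries differed past the threshold in 2 of 14061 genes tested, 0.0142% of them, with 1 higher (0.00711%) and 1 lower (0.00711%) (adjusted p under 0.05, limma with Benjamini-Hochberg adjustment over all genes). Hba-a2, an alpha-globin gene, was higher and Gcg, the proglucagon gene of enteroendocrine L cells, was lower. The unadjusted p was under 0.05 for 1668 genes, 675 with a higher value (4.8%) and 993 with a lower value (7.06%) in the aspirin-containing libraries. In 309 genes (2.2%) all 4 aspirin-containing libraries lay above all 4 aspirin-free ones, and in 564 (4.01%) they all lay below, 6.21% together. Of these, 260 and 511 lay beyond the Control libraries as well. The median difference over all tested genes was -0.01 on the log2 scale. The number of calls depended on 1 library. Without CUR replicate 1, which leaves CUR replicate 0 alone in its group and assumes that it varies like the others, 560 genes were called higher and 726 lower. Medians of gene lists depended on single libraries too, and for 39 of 44 lists leaving out 1 library turned the sign or moved the median by over 1.5 times. Such values stand in brackets after each list median, as do those with the Hoxd class as a term of the fit and the range over the other alternatives, where any of these moved it as far.

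The gain in Hba-a2 was an all-or-none pattern in the deposited values. Its level was 29.95 and 17.3 FPKM in ASA, 9.22 and 18.1 in ASA+CUR, 0.0361 and 0.0358 in Model and 0.0365 and 0.0354 in CUR. All 4 aspirin-containing libraries were at 9.22 FPKM or above, and the 4 aspirin-free libraries lay at 0.0354 to 0.0365, the level of Control (0.0357 and 0.0353). The difference was 4.14 ± 0.24 on the log2(FPKM + 1) scale (limma adjusted p = 0.00171). Hba-a2 lies on chromosome 11, 32296492 to 32297310 (GRCm38.p6), close to its near-identical copy Hba-a1, and both encode the alpha chain of haemoglobin. The coding sequences of both GENCODE transcripts are 429 bases long and differ at 1 position, C381T, counted from the A of the start codon with the base of Hba-a1 first. The stretch from position 351 to 411 is shown because it holds that base, in capitals, the only coding base at which the copies differ.
Hba-a1: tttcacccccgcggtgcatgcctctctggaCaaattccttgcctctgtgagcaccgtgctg
Hba-a2: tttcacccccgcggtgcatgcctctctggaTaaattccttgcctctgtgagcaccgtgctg

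The split of alpha-globin between these 2 copies carried the difference, and their sum did not. Hba-a1 stood at 20.5 and 39.5 FPKM in ASA, 15.5 and 172.7 in ASA+CUR, 26.4 and 85.4 in Model, 39.1 and 24.2 in CUR and 12.7 and 17.6 in Control, a difference of 0.01 ± 0.71 between the sides (limma adjusted p = 0.995). The sum of both genes was 50.4 and 56.8 FPKM in ASA, 24.8 and 190.8 in ASA+CUR, 26.5 and 85.4 in Model, and 39.2 and 24.3 in CUR. ASA+CUR held both the highest sum and one of the lowest, and the sides overlapped. With the 2 genes summed to 1 row, the difference was 0.65 ± 0.61 (limma adjusted p = 0.63), a calculation added after the values were seen. The table holds 2 rows for each gene, and the row that held the reads differed between libraries. In ASA replicate 0, ASA replicate 1 and ASA+CUR replicate 1 Hba-a2 came from its first row, at 29.9, 17.3 and 18.1 FPKM, while the second was at 0.0174 to 0.0181. In ASA+CUR replicate 0 the first row was at 0.0175 and the second at 9.21. Hba-a2 is therefore reported as uncertain, since the authors' estimate may divide the reads of near-identical copies differently from library to library. Of the 6 tested erythroid markers, Hba-a2 among them, 5 had higher values, with a median of 0.52 (1.06 without ASA+CUR replicate 0, -0.061 without ASA+CUR replicate 1, -0.012 to 0.59 over the other alternatives). Without ASA+CUR replicate 1, 2 of 6 had higher values.

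**Figure D1:**
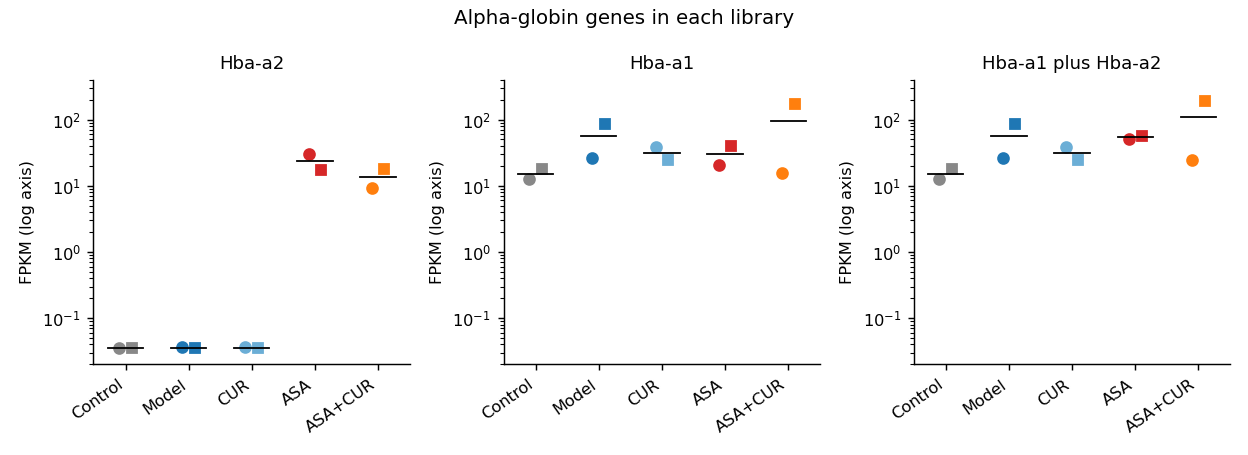
FPKM of Hba-a2, Hba-a1 and their sum (log axes) in each library by group, with circles for replicate 0, squares for replicate 1 and lines for group means. Hba-a2 was at least 9.22 in the 4 aspirin-containing libraries and at most 0.0365 in the other 6, while the sums overlapped.

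Gcg, whose product is processed to GLP-1 and GLP-2 in L cells, was the gene called lower. Its level was 4.48 and 3.58 FPKM in ASA, 3.78 and 3.95 in ASA+CUR, 12.8 and 9.75 in Model and 12.4 and 10.9 in CUR, and Control held 112 and 103. Every aspirin-containing library was at or below 4.48 and every aspirin-free one at or above 9.75, with both sides far under Control. The difference was -1.33 ± 0.12 (limma adjusted p = 0.0394), with -1.28 ± 0.18 between ASA and Model and -1.38 ± 0.18 between ASA+CUR and CUR. Among libraries with high Hoxd levels the mean of the 3 aspirin-containing ones was 4.07 FPKM against 10.9 in CUR replicate 1, and among the others ASA replicate 1 was at 3.58 against a mean of 11.6. The limma adjusted p was above the threshold in 17 of 24 alternative analyses, among them the 8 AOM/DSS libraries fitted alone (0.226), while the difference stayed between -1.57 and -1.24. Gcg lies on chromosome 2, 62474530 to 62483653 (GRCm38.p6).

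Of the 14 tested enteroendocrine genes, 11 had lower values and Gcg alone was called, with a median of -0.25 (-0.48 without ASA replicate 0, -0.069 without ASA replicate 1, -0.50 without CUR replicate 0, -0.70 with the Hoxd term, -0.60 to -0.18 over the other alternatives). The 3 that lay apart, against a background of 4.01%, were Gcg, Tph1 and Chga. Tph1, the serotonin-synthesising tryptophan hydroxylase of enterochromaffin cells, was at 1.06 and 1.47 FPKM in ASA, 2.41 and 2.36 in ASA+CUR, 2.66 and 4.16 in Model and 2.97 and 3.51 in CUR. The lowest aspirin-free value exceeded the highest aspirin-containing one by little, and the difference was -0.63 ± 0.17 (limma adjusted p = 0.392). Chga, the secretory-granule protein chromogranin A, was at 8.57 and 2.76 FPKM in ASA, 8.03 and 7.32 in ASA+CUR, 9.28 and 14.6 in Model and 9.42 and 21.4 in CUR and differed by -0.95 ± 0.35 (limma adjusted p = 0.399). ASA replicate 1 held the lowest Chga, and without it 9 of 14 members of the list were lower. In bulk tissue, fewer cells of a type and less RNA per cell cannot be told apart.

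The next genes by p in the lower direction did not pass the threshold, and their libraries lay apart (background 4.01%). Selection by p in the same libraries favours such separation. Rsrp1, which encodes a protein rich in arginine and serine, was at 73.6 and 60.4 FPKM in ASA, 71.8 and 74.7 in ASA+CUR, 133 and 131 in Model and 141 and 135 in CUR, and at 138 and 152 in Control. The aspirin-free libraries were at the Control level, and the aspirin-containing ones spanned 60.4 to 74.7. The difference was -0.94 ± 0.10 (limma adjusted p = 0.0617) and passed under 3 of 24 alternatives. Klk1, tissue kallikrein, which releases kinins, was at 114 and 119.8 FPKM in ASA, 132 and 116 in ASA+CUR, 369 and 234 in Model and 278 and 485 in CUR, with 2492 and 2119.5 in Control. The highest aspirin-containing value, 132.0, lay well under the lowest aspirin-free one, 233.9, and the difference was -1.44 ± 0.21 (limma adjusted p = 0.198). Tpsg1, a transmembrane tryptase of mast cells, was at 5.91 and 7.81 FPKM in ASA, 5.35 and 5.66 in ASA+CUR, 16.4 and 21.1 in Model and 19.6 and 13.8 in CUR. No library of one side reached the other, and the difference was -1.38 ± 0.18 (limma adjusted p = 0.117). The 15 tested mast cell markers had lower values in 11, with a median of -0.48 (-0.73 without Model replicate 0, -0.15 without ASA replicate 0, -0.82 without ASA replicate 1, -0.13 with the Hoxd term, -0.92 to -0.48 over the other alternatives) and summed levels of 87.3 to 313.2 FPKM in the aspirin-containing and 150.2 to 347.4 in the aspirin-free libraries; their part in the Tpsg1 difference was not tested.

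The other 6 genes of this direction, also selected by p and none past the threshold, lay apart in the same way (background 4.01%). One of them, Tff3, is described with the goblet cell genes. Tmem171, a membrane protein, was at 19.8 and 16.9 FPKM in ASA, 17.1 and 13.3 in ASA+CUR, 30.2 and 36.4 in Model and 32.3 and 36.6 in CUR, a difference of -0.98 ± 0.12. Hpd, which acts in tyrosine breakdown, differed by -1.21 ± 0.18, and its values ran from 3.89 to 8.40 FPKM with aspirin and from 13.2 to 18.5 without. Slc12a8, of the cation-chloride cotransporter family, differed by -0.97 ± 0.14, from 6.94 to 12.8 FPKM against 13.4 to 22.8, a narrow gap. Pde2a, a phosphodiesterase stimulated by cyclic GMP, differed by -0.77 ± 0.12, and Pkdcc, a secreted kinase, by -0.82 ± 0.13. In Control Tmem171, Hpd, Slc12a8, Pde2a and Pkdcc stood between 49.0 and 125.1 FPKM, above both sides.

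The 9 genes beside Hba-a2 with the smallest p in the higher direction were all short of the threshold. Of these, 7 had libraries that did not overlap (background 2.2%), which selection by p in the same libraries favours. Inhba, which encodes the subunit of activin A, was at 27.3 and 15.0 FPKM in ASA, 27.7 and 47.5 in ASA+CUR, 7.89 and 6.10 in Model and 4.24 and 8.26 in CUR. Control stood at 0.661 and 0.348, so all 8 libraries were above Control and the aspirin-containing ones were above the rest. The difference was 1.92 ± 0.28 (limma adjusted p = 0.197), with a mean of 34.2 FPKM against 8.26 among libraries with high Hoxd levels and 15.0 against 6.08 among the others. Ces1g, a carboxylesterase, was at 17.7 and 18.2 FPKM in ASA, 8.47 and 8.18 in ASA+CUR, 7.40 and 5.66 in Model and 6.62 and 7.18 in CUR. Both ASA libraries were about level with each other and above both ASA+CUR libraries, which lay just above the aspirin-free range. The difference was 0.79 ± 0.12 over both strata, 1.34 ± 0.17 between ASA and Model and 0.24 ± 0.17 between ASA+CUR and CUR.

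Vtcn1, the T-cell inhibitory ligand B7-H4, was at 7.83 and 9.04 FPKM in ASA, 7.34 and 9.02 in ASA+CUR, 3.64 and 2.19 in Model and 3.89 and 5.14 in CUR, a difference of 1.01 ± 0.19. The lowest aspirin-containing library exceeded the highest aspirin-free one, and Control was below 1 FPKM. Piezo1, a mechanically gated cation channel, was at 17.6 and 15.7 FPKM in ASA, 17.4 and 22.0 in ASA+CUR, 12.3 and 10.7 in Model and 12.4 and 11.6 in CUR and differed by 0.58 ± 0.12. Moxd1, of the copper monooxygenases, differed by 1.02 ± 0.18, Samd5 by 1.23 ± 0.22, and Syt8, of the synaptotagmin family, by 0.83 ± 0.16, each without overlap. Cp, the ferroxidase ceruloplasmin, overlapped between the sides and was higher in ASA (28.9 and 33.6 FPKM) than in ASA+CUR (15.4 and 20.8), with 14.0 and 15.9 in Model and 12.4 and 11.4 in CUR. All 20 genes of these 2 directions had the same direction within each Hoxd class. For the 18 whose libraries did not overlap this was fixed in advance, since any split of such libraries keeps the direction.

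**Figure D2:**
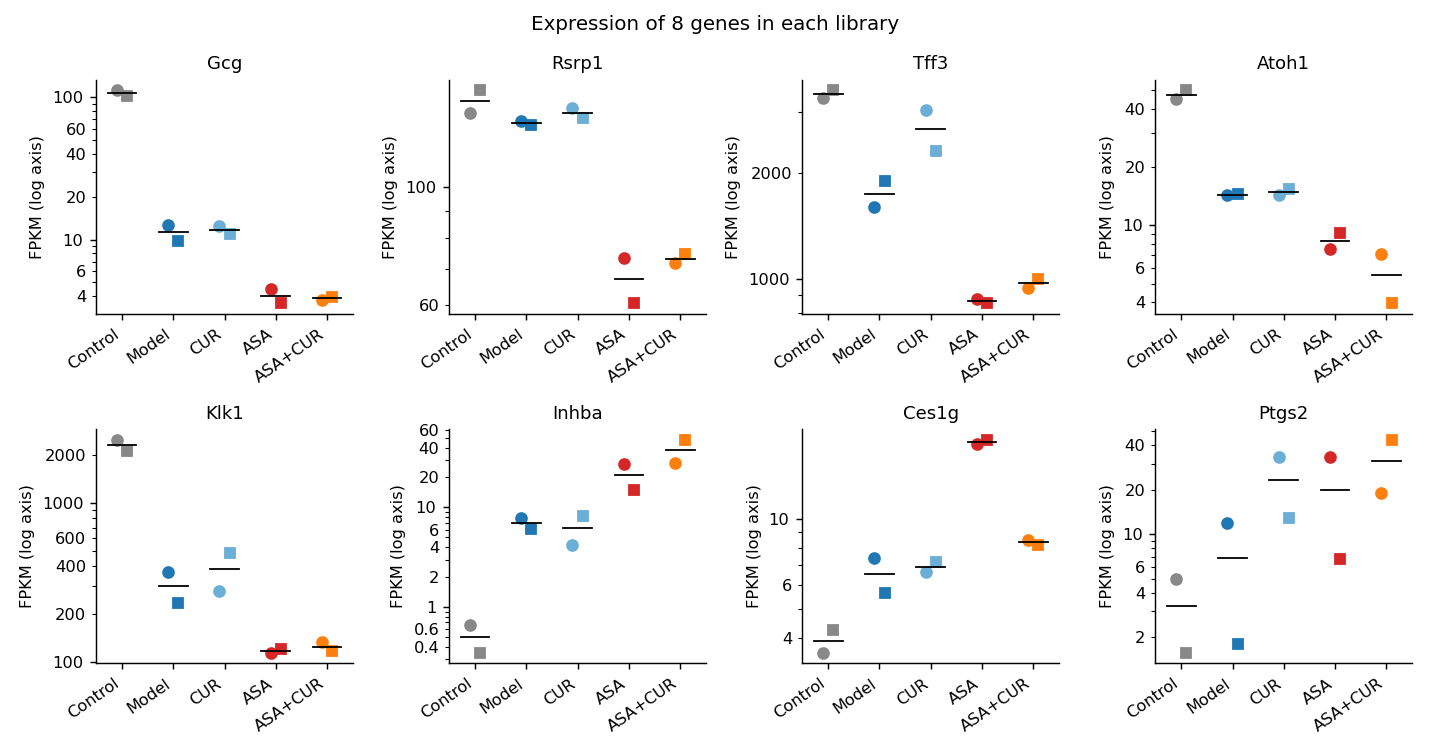
FPKM (log axes, differing between panels) of 8 genes in each library by group, with circles for replicate 0, squares for replicate 1 and lines for group means. For Gcg, Rsrp1, Tff3, Atoh1, Klk1, Inhba and Ces1g the 4 aspirin-containing libraries lay on one side of the 4 aspirin-free ones, whereas Ptgs2 overlapped.

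Goblet cells secrete the mucus layer of the colon, and their genes had mostly lower values. Of 16 tested goblet cell genes, 15 had lower values in the aspirin-containing libraries, 5 lay apart in that direction (background 4.01%) and 8 had an unadjusted p under 0.05 (background 7.06%); none passed the adjusted threshold. The median difference was -0.79, against -0.01 over all genes, with -0.53 between ASA and Model and -1.09 between ASA+CUR and CUR. The aspirin-free libraries themselves differed from Control by a median of -1.49. Tff3, a trefoil peptide secreted with mucins, was at 880.2 and 854 FPKM in ASA, 944 and 999 in ASA+CUR, 1600.5 and 1902 in Model and 3027 and 2317 in CUR. The aspirin-containing libraries spanned 854.5 to 999.0, and Control, at 3293 and 3452, lay above both sides. The Tff3 difference was -1.23 ± 0.16 (limma adjusted p = 0.117).

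Atoh1, the transcription factor that commits cells to the secretory lineages, was at 7.54 and 9.17 FPKM in ASA, 7.12 and 3.97 in ASA+CUR, 14.4 and 14.4 in Model and 14.4 and 15.4 in CUR. The 4 aspirin-free values spanned only 14.4 to 15.4 FPKM, and every aspirin-containing value was lower. The Atoh1 difference was -1.02 ± 0.16 (limma adjusted p = 0.212). Zg16, a lectin of the mucus layer, was at 609 and 395 FPKM in ASA, 619 and 672 in ASA+CUR, 1063 and 729.6 in Model and 3876 and 1838 in CUR. It lay apart as well, with a difference of -1.45 ± 0.28, and CUR replicate 0 held its highest AOM/DSS value. Leaving out 1 library gave goblet medians from -0.98 (without CUR replicate 1) to -0.56 (without CUR replicate 0), with at least 13 of 16 lower, and with the Hoxd class as a term of the fit the median was -0.68. Mean goblet levels in log2 units relative to Control were -1.96 and -2.18 in ASA, -2.27 and -2.48 in ASA+CUR, -1.59 and -1.84 in Model and -1.04 and -1.69 in CUR.

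Absorptive colonocyte genes had lower values in 21 of 24, with 3 lower and apart (background 4.01%) and none called. Their median was -0.57, with -0.17 between ASA and Model and -1.12 between ASA+CUR and CUR. Car2, a carbonic anhydrase, was at 94.0 and 178 FPKM in ASA, 117 and 60.9 in ASA+CUR, 182 and 227 in Model and 204 and 227 in CUR and lay apart by a small gap, a difference of -0.99 ± 0.26. Hsd11b2, which protects the mineralocorticoid receptor from glucocorticoid, was at 48.9 and 50.9 FPKM in ASA, 52.1 and 31.6 in ASA+CUR, 68.0 and 87.8 in Model and 78.3 and 116 in CUR, a difference of -0.92 ± 0.25. Aqp8, a water channel of surface colonocytes, was at 12.7 and 8.66 FPKM in ASA, 12.5 and 10.4 in ASA+CUR, 29.6 and 7.71 in Model and 132 and 52.5 in CUR. The sides overlapped for Aqp8, because Model replicate 1 had the lowest value of the 8, and both CUR libraries were the highest. Levels of this list in CUR replicate 0 were closest to Control of the 8 libraries.

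**Figure D3:**
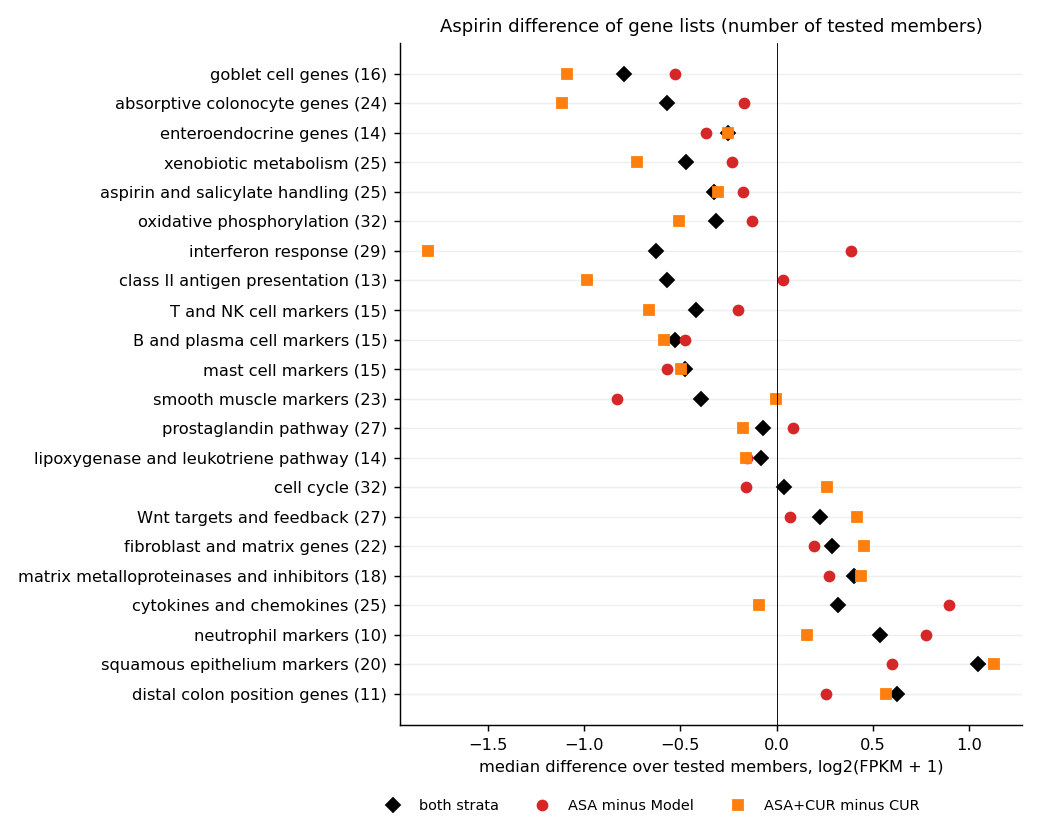
Median difference over the tested members (log2(FPKM + 1)) for 22 gene lists, with the number of tested members in brackets, for both strata together (diamonds), ASA minus Model (circles) and ASA+CUR minus CUR (squares). Goblet, absorptive and metabolic lists lay below 0 in both strata, while the interferon response list lay at 0.39 in one stratum and -1.81 in the other.

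RNA levels of the enzymes that aspirin acts on did not differ between the sides beyond the spread of the libraries. Protein was not measured. Ptgs1, the constitutive cyclooxygenase, was at 11.2 and 13.5 FPKM in ASA, 14.5 and 13.2 in ASA+CUR, 7.93 and 13.8 in Model and 18.9 and 13.9 in CUR. The sides overlapped almost completely, and the difference was 0.00 ± 0.19 (limma adjusted p = 0.994). Its class means were 13.0 FPKM against 13.9 among libraries with high Hoxd levels and 13.5 against 13.6 among the others. Ptgs2, the inducible cyclooxygenase, was at 33.2 and 6.82 FPKM in ASA, 19.0 and 43.4 in ASA+CUR, 11.9 and 1.81 in Model and 33.4 and 12.8 in CUR. Its values ranged widely within every group of 2, and the difference of 0.94 ± 0.67 had a limma adjusted p of 0.531. Among libraries with high Hoxd levels the Ptgs2 mean was 31.9 FPKM against 12.8 in CUR replicate 1, and among the others 6.82 in ASA replicate 1 against a mean of 15.7, so its direction was opposite in the 2 classes. Hpgd, which inactivates prostaglandin E2, was at 29.7 and 22.9 FPKM in ASA, 39.9 and 15.8 in ASA+CUR, 32.3 and 36.0 in Model and 28.6 and 77.7 in CUR, a difference of -0.63 ± 0.36, and Ptges, the inducible prostaglandin E synthase, was at 14.8 and 10.6 FPKM in ASA, 9.52 and 16.1 in ASA+CUR, 7.33 and 8.61 in Model and 13.8 and 8.25 in CUR, a difference of 0.40 ± 0.22. For each of these 2 genes the sides overlapped.

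Over the 27 tested genes of the prostaglandin pathway, 12 had higher and 15 lower values, with a median of -0.07 (-0.03 without Model replicate 1, -0.04 without CUR replicate 0, -0.13 without ASA+CUR replicate 0, 0.026 without ASA+CUR replicate 1, -0.045 with the Hoxd term, -0.11 to 0.031 over the other alternatives). None was called and 2 lay apart, both lower (background 4.01%). Cbr1, a carbonyl reductase that can convert prostaglandin E2, was at 96.4 and 91.1 FPKM in ASA, 88.0 and 72.3 in ASA+CUR, 125 and 98.5 in Model and 133 and 123 in CUR. It was lower in every aspirin-containing library by a narrow margin, with a difference of -0.46 ± 0.12 (limma adjusted p = 0.392). Anxa1, an annexin that restrains phospholipase A2, was at 553 and 443 FPKM in ASA, 869 and 739 in ASA+CUR, 393 and 242 in Model and 612 and 358 in CUR and differed by 0.73 ± 0.22; CUR replicate 0 exceeded both ASA libraries. Ptgis, prostacyclin synthase, was at 1.05 and 1.53 FPKM in ASA, 3.30 and 1.44 in ASA+CUR, 4.02 and 3.53 in Model and 3.12 and 2.24 in CUR, and its difference of -0.62 ± 0.21 lay mostly between ASA and Model (-1.07 ± 0.29, against -0.17 ± 0.29 between ASA+CUR and CUR).

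The lipoxygenase and leukotriene list, the other branch from arachidonic acid, had 9 of 14 lower values and a median of -0.08 (-0.28 without Model replicate 0 to 0.071 without ASA replicate 0, 0.04 with the Hoxd term, -0.20 to -0.079 over the other alternatives), with no gene called or apart. Ltc4s, leukotriene C4 synthase, was at 2.27 and 1.93 FPKM in ASA, 1.64 and 0.657 in ASA+CUR, 2.22 and 3.69 in Model and 2.73 and 3.83 in CUR and differed by -0.67 ± 0.20. Dpep1, a dipeptidase that acts on leukotriene D4, differed by -1.53 ± 0.55 and Mgst2, a glutathione transferase that can form leukotriene C4, by -0.64 ± 0.22. For all 3 the libraries of the sides overlapped. Genes of epithelial growth linked to prostaglandin signalling had 13 of 16 higher values with a median of 0.19 (0.069 without Model replicate 1, 0.11 without CUR replicate 1).

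Enzymes that could handle aspirin and salicylate, such as esterases and conjugating enzymes, had lower values in 17 of 25 and a median of -0.33 (-0.21 without CUR replicate 1, -0.17 without ASA+CUR replicate 1, -0.36 to -0.15 over the other alternatives). Lower and apart were 4 (background 4.01%) and higher and apart was 1, Ces1g (background 2.2%); none was called. Aadac, a deacetylase of the endoplasmic reticulum, was at 0.886 and 1.87 FPKM in ASA, 1.19 and 0.958 in ASA+CUR, 8.86 and 3.81 in Model and 3.47 and 3.95 in CUR. The highest aspirin-containing value was 1.87 and the lowest aspirin-free value 3.47, a difference of -1.37 ± 0.24 (limma adjusted p = 0.264), with 40.7 and 47.2 in Control. Ces2c, a carboxylesterase, was at 7.02 and 8.34 FPKM in ASA, 7.07 and 3.83 in ASA+CUR, 11.9 and 9.05 in Model and 15.4 and 18.4 in CUR and differed by -0.95 ± 0.20. It therefore lay in the opposite direction to Ces1g. The wider xenobiotic metabolism list had 17 of 25 lower values and a median of -0.47 (-0.25 without CUR replicate 1, -0.25 without ASA+CUR replicate 1, -0.55 to -0.25 over the other alternatives), with 3 lower and apart (background 4.01%). Cyp4f14, which hydroxylates leukotrienes and fatty acids, was at 5.04 and 15.3 FPKM in ASA, 5.62 and 2.66 in ASA+CUR, 22.9 and 20.8 in Model and 36.7 and 19.1 in CUR and differed by -1.84 ± 0.35. Cyp2c55, a cytochrome P450 of colon, ranged from 0.515 to 8.32 FPKM with aspirin and from 10.7 to 74.9 without, and Sult1d1, a sulfotransferase, overlapped between the sides with a difference of -0.93 ± 0.24.

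Subunits of the mitochondrial respiratory chain had lower values in 30 of 32, with a median of -0.32 (-0.18 without CUR replicate 0, -0.32 to -0.12 over the other alternatives) and 5 apart in that direction (background 4.01%). All 32 had lower values in ASA than in Model and 30 of 32 in ASA+CUR than in CUR, with medians of -0.13 and -0.51. None was called. Ndufb5, of complex I, was at 66.0 and 76.3 FPKM in ASA, 75.1 and 78.2 in ASA+CUR, 104 and 92.2 in Model and 138 and 92.3 in CUR, a difference of -0.50 ± 0.14. Ndufa1, also of complex I, was at 184 and 151 FPKM in ASA, 149 and 143 in ASA+CUR, 194 and 201.1 in Model and 299 and 206 in CUR and differed by -0.50 ± 0.14, and Uqcrh, of complex III, differed by -0.57 ± 0.18. CUR replicate 0 had the highest value of all 3 among the 8 libraries. With quantile normalization 22 of 32 had lower values, and without CUR replicate 0 all 32 had.

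Genes of the extracellular matrix and its remodelling had mostly higher values in the aspirin-containing libraries. Of 18 matrix metalloproteinases and their inhibitors 15 had higher values, 7 with an unadjusted p under 0.05 (background 4.8%) and 1 apart (background 2.2%), with a median of 0.40 (0.26 to 0.48 over the other alternatives); none was called. Mmp14, a membrane-bound metalloproteinase, was at 141 and 127 FPKM in ASA, 150.1 and 163 in ASA+CUR, 111 and 118 in Model and 102 and 104 in CUR. Its sides did not overlap, and the difference was 0.41 ± 0.09 (limma adjusted p = 0.312). Mmp10, a stromelysin, was at 249 and 230.1 FPKM in ASA, 134 and 283 in ASA+CUR, 116 and 103 in Model and 151 and 64.0 in CUR and differed by 1.05 ± 0.31, with ASA+CUR replicate 0 inside the aspirin-free range. Mmp13, a collagenase, was at 143 and 86.3 FPKM in ASA, 68.4 and 178 in ASA+CUR, 50.6 and 32.5 in Model and 81.0 and 43.8 in CUR, with the same library inside that range, and differed by 1.15 ± 0.35. Fibroblast and matrix genes had higher values in 20 of 22 with a median of 0.29 (0.07 without Model replicate 0, 0.52 without Model replicate 1, 0.054 to 0.40 over the other alternatives). Dcn, the proteoglycan decorin, was at 302 and 258 FPKM in ASA, 298 and 275 in ASA+CUR, 186 and 252 in Model and 119 and 165 in CUR, apart by a narrow gap at Model replicate 1, and differed by 0.70 ± 0.15. Col5a2, a fibrillar collagen, differed by 0.71 ± 0.20 and Lox, which cross-links collagen, by 0.80 ± 0.25, with Model replicate 1 inside the aspirin-containing range or above it.

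Inflammatory genes did not share a direction. All 10 tested neutrophil markers had higher values, none called or apart, with a median of 0.54 (0.88 without ASA replicate 0, 0.18 without ASA replicate 1, 0.21 without ASA+CUR replicate 1). Without ASA replicate 1, 6 of 10 had higher values. Summed neutrophil markers, in which abundant genes weigh most, were 424.1 to 729.7 FPKM with aspirin and 182.0 to 350.3 without. Their list means relative to Control overlapped, at 2.74 to 4.21 log2 units with aspirin and 2.44 to 3.16 without. Cytokines and chemokines had higher values in 16 of 25 and a median of 0.32 (0.18 to 0.57 over the other alternatives), with medians of 0.90 between ASA and Model and -0.09 between ASA+CUR and CUR. Cxcl3, a neutrophil chemokine, was at 16.8 and 10.8 FPKM in ASA, 8.26 and 32.3 in ASA+CUR, 6.90 and 2.82 in Model and 5.35 and 5.81 in CUR, the 1 member that lay apart (background 2.2%), and differed by 1.41 ± 0.40 (limma adjusted p = 0.395). Ccl5, which attracts T cells, differed in the other direction, by -1.33 ± 0.42, with its lowest values in ASA+CUR (3.29 and 1.72 FPKM). Il6 was at 12.3 and 1.22 FPKM in ASA, 0.998 and 4.63 in ASA+CUR, 1.64 and 0.432 in Model and 1.15 and 0.342 in CUR, and its difference of 1.23 ± 0.58 rested largely on ASA replicate 0. Il1b differed by 0.60 ± 0.29, Tnf by 0.27 ± 0.20 and Nos2, the inducible nitric oxide synthase, by -0.05 ± 0.31, all with overlapping sides. Nos2 was at 23.6 and 16.7 FPKM in ASA and 3.94 and 2.11 in ASA+CUR, the extremes of the 4 groups.

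Myeloid genes with higher values included Marco, a scavenger receptor, at 3.06 and 2.71 FPKM in ASA, 0.901 and 4.10 in ASA+CUR, 0.286 and 0.976 in Model and 0.329 and 0.0343 in CUR (difference 1.35 ± 0.31), and Arg1, arginase of alternatively activated macrophages, at 68.6 and 185 FPKM in ASA, 72.7 and 91.9 in ASA+CUR, 76.6 and 34.0 in Model and 39.0 and 28.5 in CUR (difference 1.20 ± 0.35). Itgam, the integrin CD11b of myeloid cells, differed by 0.64 ± 0.20. The 21 macrophage and dendritic markers as a list were split, 11 higher and 10 lower, with a median of 0.02 (-0.25 without Model replicate 0 to 0.16 without Model replicate 1, 0.20 with the Hoxd term, -0.19 to 0.022 over the other alternatives). T and NK cell markers had lower values in 13 of 15, with a median of -0.42 (-0.70 without Model replicate 0, -0.14 without Model replicate 1, -0.23 with the Hoxd term, -0.65 to -0.36 over the other alternatives). B and plasma cell markers had lower values in 13 of 15, with a median of -0.53 (-0.23 without Model replicate 1, -0.31 without CUR replicate 1). Jchain, the joining chain of secreted immunoglobulin, was at 87.5 and 162 FPKM in ASA, 108 and 72.2 in ASA+CUR, 323 and 1038 in Model and 143 and 165 in CUR. Model replicate 1 held by far the most Jchain, as it did Mzb1, a chaperone of plasma cells, at 8.72 and 8.11 FPKM in ASA, 6.91 and 4.88 in ASA+CUR, 20.5 and 61.4 in Model and 8.79 and 9.67 in CUR. Platelet markers had higher values in 6 of 9 with a median of 0.19 (-0.071 without Model replicate 0, 0.48 without CUR replicate 0, 0.074 without CUR replicate 1, 0.37 with the Hoxd term, 0.084 to 0.35 over the other alternatives). Ppbp, a platelet chemokine, was at 76.9 and 4.94 FPKM in ASA, 86.7 and 9.27 in ASA+CUR, 8.18 and 4.36 in Model and 3.96 and 3.03 in CUR, high in replicate 0 of both aspirin-containing groups alone. Its class means were 57.6 FPKM against 3.03 among libraries with high Hoxd levels and 4.94 against 5.498 among the others. Selp, P-selectin of platelets and endothelium, differed by 0.93 ± 0.36.

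Targets of Wnt signalling, which AOM-driven tumours activate, had higher values in 20 of 27, none called and 1 higher and apart (background 2.2%). The median was 0.22 (0.15 without ASA replicate 1, 0.10 without CUR replicate 0, 0.34 without CUR replicate 1, 0.10 without ASA+CUR replicate 1), with 0.07 between ASA and Model and 0.42 between ASA+CUR and CUR. Lgr5, a stem cell receptor, was at 15.8 and 10.6 FPKM in ASA, 11.4 and 20.3 in ASA+CUR, 12.3 and 11.9 in Model and 7.77 and 7.22 in CUR, and Prox1, a homeobox gene induced in intestinal tumours, at 39.9 and 43.8 FPKM in ASA, 50.7 and 70.0 in ASA+CUR, 27.0 and 24.3 in Model and 5.74 and 42.1 in CUR. The sides overlapped for both, CUR replicate 0 had by far the lowest Prox1, and the differences were 0.52 ± 0.20 and 1.26 ± 0.49. Ephb2, a receptor of crypt base cells, was at 29.6 to 31.9 FPKM with aspirin and 21.8 to 27.9 without, and differed by 0.32 ± 0.14. Axin2, a feedback inhibitor, differed by 0.37 ± 0.22, Myc by -0.02 ± 0.17, and the cyclin Ccnd1 by 0.00 ± 0.12, while Cdkn1a, a cyclin-dependent kinase inhibitor, differed by -0.06 ± 0.18. Class means were 90.7 FPKM against 93.7 among libraries with high Hoxd levels and 77.5 against 59.9 among the others for Axin2, and 95.0 FPKM against 108 among libraries with high Hoxd levels and 114 against 98.1 among the others for Ccnd1. The 32 cell cycle genes had a median of 0.04 (-0.15 without Model replicate 1 to 0.28 without Model replicate 0, -0.01 with the Hoxd term, -0.015 to 0.081 over the other alternatives), with 28 lower in ASA than in Model and 27 higher in ASA+CUR than in CUR.

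Squamous epithelium markers, genes of the skin-like lining found beyond the anal end of the colon, had a median of 1.05 (0.61 without ASA replicate 0), with 18 of 20 higher and none called or apart. Krt14, a basal keratin, was at 117 and 57.3 FPKM in ASA, 198 and 95.2 in ASA+CUR, 51.7 and 9.97 in Model and 59.3 and 27.8 in CUR, and differed by 1.76 ± 0.53. Its level was 136.8 FPKM against 27.8 among libraries with high Hoxd levels and 57.3 against 40.3 among the others. Dsg3, a desmoglein of squamous cells, differed by 1.05 ± 0.30. Krt5, another basal keratin, was at 94.5 FPKM in ASA replicate 0, 211.5 in ASA+CUR replicate 0 and 10.3 in Model replicate 0, and at most 0.130 in the other 5 AOM/DSS libraries. Summed squamous markers were 268.8 to 1217 FPKM with aspirin and 144.9 to 488.8 without. Distal colon position genes, which include the Hoxd genes above, had a median of 0.63 (0.34 without Model replicate 1, 0.15 without ASA replicate 0, 0.31 without CUR replicate 0, 0.94 without CUR replicate 1, 0.14 with the Hoxd term, 0.26 to 0.74 over the other alternatives). The part of tissue position in the aspirin differences was not tested beyond the values within the Hoxd classes. With that term in the fit of the 8 libraries no gene was called, and 564 of 13597 genes had an unadjusted p under 0.05. Gcg differed by -1.35 in that fit (limma adjusted p = 0.251).

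**Figure D4:**
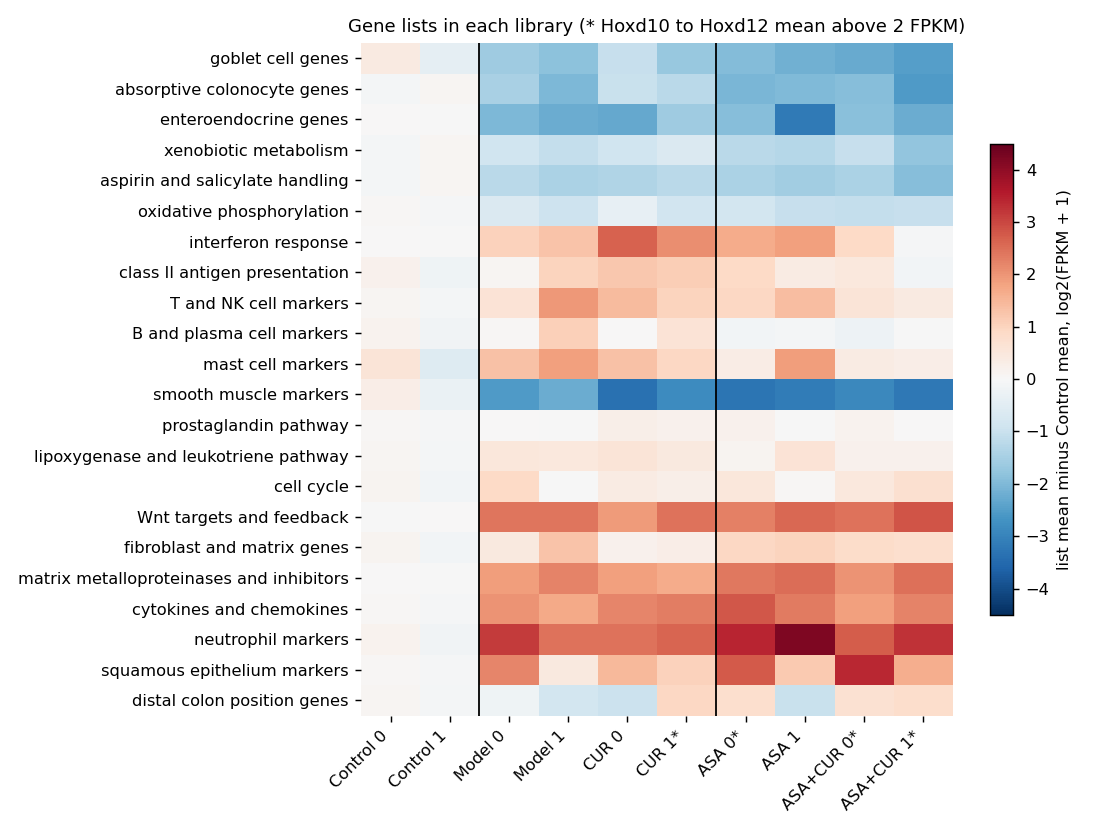
Mean of each list in each library relative to the mean of Control (log2(FPKM + 1), colour scale from -4.5 to 4.5), with Control, aspirin-free and aspirin-containing libraries separated by lines and asterisks on libraries with a mean Hoxd10 to Hoxd12 level above 2 FPKM. Goblet means ran from -1.96 to -2.48 in the aspirin-containing and from -1.04 to -1.84 in the aspirin-free libraries, and among the 4 AOM/DSS groups the interferon response was highest in CUR and lowest in ASA+CUR.

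Taken stratum by stratum, ASA against Model gave 2 called genes of 14061 (0.0142%), 1 in each direction (0.00711%). These were Hba-a2, higher, and a transcript without a gene name, lower, that was at 14.2 and 6.81 FPKM in Model and listed at 0 in the other 8 libraries. ASA+CUR against CUR gave none (0%), with 1944 genes at an unadjusted p under 0.05 against 335 in the first stratum. These 2 comparisons share no library, and across genes their log2 differences had a correlation of 0.369 and the same sign in 65.3%, values given as a description since genes are not independent. Without CUR replicate 1 the second stratum gave 1956 called genes. The test of the difference between the strata called no gene (0%), and 452 of 14061 genes had an unadjusted p under 0.05. This count, like the 335 of ASA against Model, was below the share of 0.05 that no difference at all would give.

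**Figure D5:**
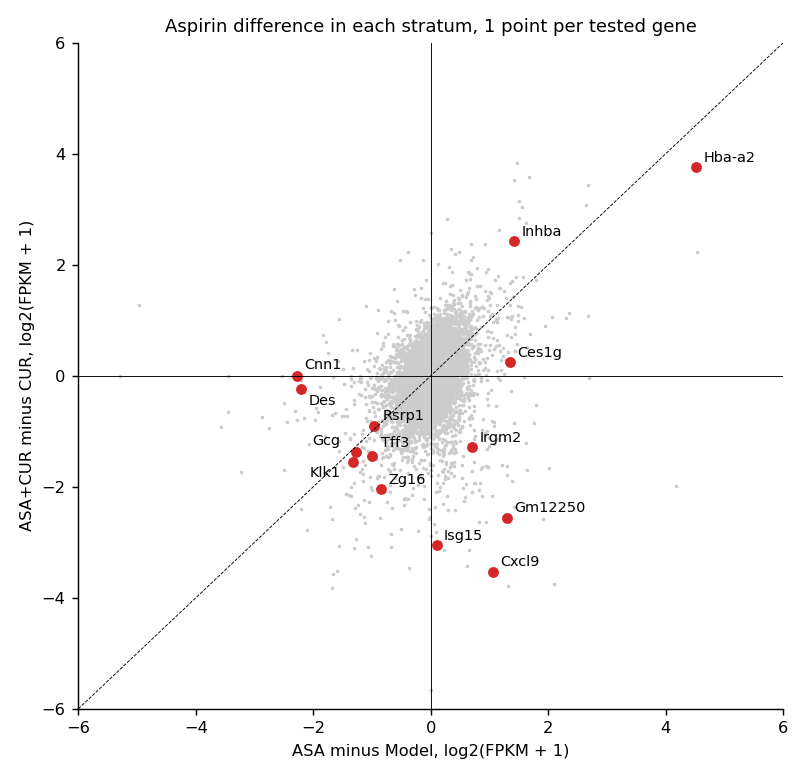
Log2(FPKM + 1) difference between ASA and Model (x axis) and between ASA+CUR and CUR (y axis) for each tested gene (grey; 2 genes lie outside the plotted range of 6 units), with 14 genes named in red and equality as a dashed line. Gcg, Rsrp1, Tff3 and Klk1 lay near that line, Des and Cnn1 near the horizontal axis, and Irgm2, Gm12250 and Cxcl9 to the right of 0 and below it.

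Interferon-response genes had opposite medians in the strata. Over both strata 28 of 29 tested members had lower values, none called or apart, and 10 had an unadjusted p under 0.05 (background 7.06%). The median over both was -0.63 (-0.71 to -0.096 over the other alternatives). Of 29 tested members 24 had higher values in ASA than in Model, with a median of 0.39, whereas all 29 had lower values in ASA+CUR than in CUR, with a median of -1.81; none was called in either. Relative to Control the list mean was 1.68 and 1.85 in ASA, 0.89 and -0.05 in ASA+CUR, 1.04 and 1.29 in Model and 2.64 and 2.09 in CUR. Isg15, a ubiquitin-like interferon product, was at 27.5 and 72.6 FPKM in ASA, 19.8 and 11.5 in ASA+CUR, 42.5 and 41.1 in Model and 309 and 56.9 in CUR, and Ifit1, an RNA-binding antiviral protein, at 8.31 and 40.5 FPKM in ASA, 5.82 and 4.28 in ASA+CUR, 18.1 and 17.0 in Model and 63.9 and 26.2 in CUR. Among the 8 libraries both were highest in CUR replicate 0 and lowest in ASA+CUR replicate 1. The Ifit1 class means were 6.14 FPKM against 26.2 among libraries with high Hoxd levels and 40.5 against 33.0 among the others. Rsad2, the antiviral enzyme viperin, was at 1.06 and 3.90 FPKM in ASA, 1.10 and 1.18 in ASA+CUR, 2.66 and 2.41 in Model and 6.39 and 7.06 in CUR, with a difference of -1.85 ± 0.35 in the curcumin stratum. The Rsad2 class means were 1.11 FPKM against 7.06 among libraries with high Hoxd levels and 3.90 against 3.82 among the others.

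The 5 named genes with the smallest p for a difference between the strata were all interferon-inducible. Selection by p in the same libraries favours opposite differences in the strata, and none of these genes was called. Irgm2, an immunity-related GTPase, was at 36.6 and 39.2 FPKM in ASA, 14.5 and 12.0 in ASA+CUR, 21.3 and 24.5 in Model and 30.4 and 37.3 in CUR. Its values in ASA were above Model and those in ASA+CUR below CUR without overlap, by 0.71 ± 0.17 and -1.29 ± 0.17. The difference between the strata was -1.996 ± 0.24 (limma adjusted p = 0.226), and class means were 21.0 FPKM against 37.3 among libraries with high Hoxd levels and 39.2 against 25.4 among the others. Gm12250, another such GTPase, was at 13.3 and 4.85 FPKM in ASA, 2.12 and 0.264 in ASA+CUR, 2.28 and 3.21 in Model and 9.78 and 11.7 in CUR, and the strata differed by -3.86 ± 0.73. Class means of Gm12250 were 5.24 FPKM against 11.7 among libraries with high Hoxd levels and 4.85 against 5.09 among the others. The ADP-ribosyltransferase genes Parp14 and Parp9 differed between the strata by -2.05 ± 0.32 and -1.67 ± 0.29, and Dtx3l, the ubiquitin ligase partner of Parp9, by -1.39 ± 0.25, each with a limma adjusted p of 0.987. Their class means were 13.5 FPKM against 23.0 among libraries with high Hoxd levels and 21.4 against 16.6 among the others for Parp14, 28.4 FPKM against 39.4 among libraries with high Hoxd levels and 40.2 against 28.01 among the others for Parp9, and 21.8 FPKM against 31.4 among libraries with high Hoxd levels and 31.03 against 21.1 among the others for Dtx3l. Cxcl9, an interferon-induced chemokine, was at 12.6 and 8.03 FPKM in ASA, 4.66 and 0.0977 in ASA+CUR, 2.58 and 6.96 in Model and 25.5 and 30.2 in CUR, with log2 differences of 1.05 between ASA and Model and -3.53 between ASA+CUR and CUR.

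The 150 bases before the starts of Irgm2 (chr11:58214827-58214976, + strand) and Gm12250 (chr11:58183693-58183842, + strand) are shown because both genes had higher values in ASA than in Model and lower values in ASA+CUR than in CUR. These directions were not particular to Irgm2 and Gm12250. Of 29 tested interferon-response genes 24 had higher values in ASA than in Model, and all 29 had lower values in ASA+CUR than in CUR. Dtx3l (0.68 and -0.71) and Cxcl9 had these directions too, and none of the other genes is shown. Matches to the core of the interferon-stimulated response element, searched as GAAA, any 2 bases and GAAA, or on the other strand TTTC, any 2 bases and TTTC, are in capitals (RefSeq promoters, GRCm38.p6).
Irgm2: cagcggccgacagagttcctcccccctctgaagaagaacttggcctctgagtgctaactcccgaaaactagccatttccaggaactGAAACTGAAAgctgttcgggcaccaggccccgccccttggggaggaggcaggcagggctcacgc
Gm12250: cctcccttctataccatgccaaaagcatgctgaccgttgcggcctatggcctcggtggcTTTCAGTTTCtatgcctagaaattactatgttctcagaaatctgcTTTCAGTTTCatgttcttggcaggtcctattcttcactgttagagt
The motif was found once before the start of Irgm2 and at 2 places before Gm12250. It occurs in 3.44% of the 32851 promoter windows of 300 bases (250 before to 50 after a start). Windows of Isg15, Ifit1 and Rsad2 hold it too, and that of Dtx3l does not. Those of Parp14, Parp9 and Cxcl9 were not searched. A match is a run of letters and says nothing of binding.

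Class II antigen presentation genes followed a like pattern, with a median of 0.03 between ASA and Model and -0.99 between ASA+CUR and CUR, and 12 of 13 with lower values over both. Smooth muscle markers showed the reverse, with 22 of 23 lower in ASA than in Model (median -0.83) and a median of 0.00 between ASA+CUR and CUR; none was called. Des, the muscle filament desmin, was at 13.9 and 17.5 FPKM in ASA, 27.8 and 21.2 in ASA+CUR, 68.4 and 83.3 in Model, 23.6 and 34.8 in CUR and 1451 and 851 in Control. The Model libraries were the highest of the 8, and CUR, ASA and ASA+CUR lay together below them. The Des difference was -2.20 ± 0.30 between ASA and Model and -0.23 ± 0.30 between ASA+CUR and CUR. Cnn1, calponin, was at 7.68 and 10.5 FPKM in ASA, 21.4 and 19.4 in ASA+CUR, 47.4 and 47.2 in Model and 14.5 and 28.4 in CUR, and Tagln, transgelin, differed by -1.36 ± 0.31 and -0.19 ± 0.31 in the same order. Summed smooth muscle markers were 1712 to 1967 FPKM with aspirin, 2038 to 2901 without it, and 9818 and 15240.1 in Control. Such sums weigh abundant genes most. The list means relative to Control overlapped, at -3.29 to -2.91 log2 units with aspirin and -3.34 to -2.25 without. The lowest was CUR replicate 0, and no member of the list lay apart. The part of muscle tissue in the other differences was not tested.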

How the data were processed

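RNA-seq was done on 10 colon samples, 2 in each of 5 groups, per the labels. The authors deposited 1 table of FPKM values per RefSeq transcript and library. Cuffdiff, Bowtie2 (2.1.0.0), TopHat2 (2.0.9) and bcl2fastq (2.17.1.14) are listed, for the builds mm10 and GRCm38, in the submitters' processing notes. Strand and multi-mapping settings are not given in the sources used here.

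Gene names came from RefSeq (29443 of 30073 transcripts) and GENCODE (179), and 451 rows kept their identifiers. FPKM was summed per gene, and the test covered the 14061 genes that reached 1 FPKM in 2 or more libraries. Differences of log2(FPKM + 1) were fitted with limma 3.58.1 in R 4.3.3 with a variance trend, with all 10 libraries in 5 groups, as the mean of ASA and ASA+CUR minus the mean of Model and CUR. Such differences understate the change of genes with low values. Errors of log2 differences are standard errors, tests are two-sided, and adjusted p-values are Benjamini-Hochberg over all tested genes. Since FPKM values are not counts, a log-scale test was chosen and counting error is unknown; precision rests on the number of libraries. The steps were tested on simulated data.

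The members and the 44 gene lists were chosen with earlier results of these data known. Named genes are the 10 in each direction that passed or, short of 10, had the smallest p, up to 3 members of each list by smallest p, 12 fixed genes of prostaglandin, inflammatory and growth pathways, and the 5 with the smallest p in each stratum and for the difference between strata. Krt5, Krt8, Car1, Cdx2, Hba-a1 and the Hoxd genes were named after their values were seen. Alternatives were other pseudocounts, filters, scalings, fits and libraries left out. A Hoxd position term, a summed alpha-globin row and leaving out both CUR libraries were added after the data were seen.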

Additional observations from a re-analysis of the deposited data

Results flagged for a closer look

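In 20 of 258 sets of 4 libraries of a side (the genes named in the text and the means of the gene lists) 1 library lay far from the other 3, by Dixon's test of the gap over the range. Chance alone gives such a gap in about 1 set of 20, and the sets share libraries and genes. ASA replicate 1 was the distant library in 8 sets and CUR replicate 0 in 5.

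ASA replicate 1 was low for Chga (2.756 FPKM against 7.317 to 8.575 in the other aspirin-containing libraries) and for the mean of the distal colon position genes (2.231 log2 units against 3.937 to 4.035). It was high for Rsad2 (3.898 FPKM against 1.056 to 1.181) and for the list means, in log2 units, of mast cell markers (3.63 against 2.044 to 2.14), macrophage and dendritic markers (4.526 against 3.703 to 3.823), the lipoxygenase and leukotriene pathway (3.228 against 2.721 to 2.801), adipocyte markers (2.273 against 1.674 to 1.772) and fatty acid oxidation and PPAR targets (4.424 against 3.904 to 3.944). CUR replicate 0 was high for Ndufa1 (299.2 FPKM against 193.8 to 206 in the other aspirin-free libraries), Uqcrh (904.9 against 543.8 to 587.9) and Isg15 (309.2 against 41.12 to 56.95), and low for the means of Wnt targets (4.56 log2 units against 5.03 to 5.07) and of the sex-linked genes (3.135 against 3.515 to 3.589).

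Single libraries stood out elsewhere. Model replicate 0 was high for Aadac (8.864 FPKM against 3.466 to 3.948) and Selp (7.638 against 2.142 to 2.462), and Model replicate 1 for the mean of macrophage and dendritic markers (4.468 log2 units against 3.64 to 3.654). Atoh1 was at 15.41 FPKM in CUR replicate 1 against 14.35 to 14.45 in the others. Hsd11b2 was at 31.57 FPKM in ASA+CUR replicate 1 against 48.9 to 52.1, Il1b at 27.54 in ASA+CUR replicate 0 against 49.4 to 53.5, and the mean of oxidative phosphorylation at 7.675 log2 units in ASA replicate 0 against 7.424 to 7.461.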

How the results depend on the processing

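The comparison of the sides, its named genes and its list medians were recomputed under the alternatives, except that keeping transcripts separate was tried for the count of genes only and Hba-a2 has no value where it is summed with Hba-a1. The comparisons within strata and their difference were recomputed only with a pseudocount of 0.1, median-of-ratios scaling, the replicate block and single libraries left out, and list medians within strata under none. Of 14061 genes, 2 differed between the sides; the count was 1 without a filter on low values, with quantile normalization, in the 8 AOM/DSS libraries alone, with additive aspirin and curcumin terms, without a variance trend and with the replicate block. By limma it was 4 in a fit of 2 groups of 4 and 5 with both CUR libraries left out. It was 0 with aspirin percent as a numeric term (549 of 13597 genes at an unadjusted p under 0.05) and with the Hoxd position term (564 of 13597). The count was also 0 with transcripts kept separate (1973) and with Hba-a1 and Hba-a2 summed (1667). Leaving out 1 library gave 1 to 1286 genes, and the highest count was without CUR replicate 1; the cause of these shifts was not tested. For ASA against Model (2 genes) single libraries left out gave 0 to 1, and for ASA+CUR against CUR (0 genes, 1944 at an unadjusted p under 0.05) they gave 0 to 1956, the highest again without CUR replicate 1, with 1 at a pseudocount of 0.1. The difference between the strata (0 genes, 452 at an unadjusted p under 0.05) gave 0 to 1.

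Deviations of same-numbered libraries correlated from -0.21 to 0.33 over pairs of groups, highest between ASA and ASA+CUR. Such correlations cannot tell whether numbers 0 and 1 pair the samples. The replicate block left 2 genes for ASA against Model, 0 for ASA+CUR against CUR and 0 for the difference, and 1649 genes at an unadjusted p under 0.05 between the sides. Gcg had an adjusted p of 0.0521 under the block (limma).

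Hba-a2 passed under 21 of 23 alternatives that kept it as a gene of its own, and Gcg under 7 of 24. Some named genes, none called, changed the sign of their log2 difference. With aspirin percent as a numeric term the difference was 0.061 for Cdkn1a, 0.26 for Dtx3l, 0.019 for Gm12250, 0.048 for Irgm2, 0.31 for Nos2, 0.10 for Parp14 and 0.081 for Ptgs1. With the CUR libraries left out it was 0.40 for Cdkn1a, 0.25 for Dtx3l, 0.20 for Gm12250, 0.21 for Parp14 and 0.29 for Ptgs1. With the Hoxd position term it was 0.28 for Myc, 0.028 for Nos2 and 0.16 for Ptgs1, and with quantile normalization 0.12 for Cdkn1a and 0.065 for Myc. Leaving out 1 library gave ranges that crossed 0 for Ptgs1 (-0.19 to 0.18), Nos2 (-0.25 to 0.15), Myc (-0.18 to 0.15), Ccnd1 (-0.10 to 0.11), Cdkn1a (-0.18 to 0.059), Parp9 (-0.091 to 0.20) and Dtx3l (-0.12 to 0.088). Of the 44 list medians, 18 turned sign with 1 library left out, 10 with the Hoxd term and 8 with another alternative, 21 in all. FPKM keeps no read totals, and 2 libraries a group limit what can be detected.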

Other observations

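A rule chosen after the values were seen picked 18 genes that were at the Control level in the aspirin-free libraries (a mean log2 difference under 0.25), apart from both in the aspirin-containing ones, at least 0.5 log2 units away and with an unadjusted p under 0.01. Among them 9 were higher and 9 lower, and only Hba-a2 had a limma adjusted p under 0.05. Rsrp1 was the lower gene with the smallest p. Marchf7, a ubiquitin ligase, was at 25.4 ± 2.52 FPKM (SD, n = 4) with aspirin, 14.8 ± 3.72 (SD, n = 4) without and 15.3 ± 1.82 (SD, n = 2) in Control. Leng8 was at 30.8 ± 6.46, 19.9 ± 1.87 and 17.7 ± 1.82 in the same order. Trpc6, a calcium-permeable channel, was at 1.48 ± 0.336, 0.654 ± 0.138 and 0.394 ± 0.188. Among the lower genes, Rpl17, a protein of the large ribosomal subunit, was at 856 ± 63.7 with aspirin, 1229 ± 194 without and 1272 ± 78.3 in Control, and Chka, choline kinase, at 6.47 ± 0.874, 9.75 ± 1.16 and 11.6 ± 0.537. These differences are descriptions of genes selected on the same values.

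Medians of the gene lists not described above are set beside -0.01 over all genes, with the range over leaving out 1 library in brackets. Nrf2 targets had lower values in 23 of 31 with a median of -0.14 (-0.18 to -0.041), fatty acid oxidation and PPAR targets in 20 of 25 with a median of -0.17 (-0.27 to -0.14), cholesterol and fatty acid synthesis in 17 of 24 with a median of -0.17 (-0.32 to 0.079) and genes of the unfolded protein response and heat shock in 18 of 26 with a median of -0.15 (-0.18 to 0.0097). Antimicrobial and Paneth genes had lower values in 14 of 20 with a median of -0.26 (-0.40 to -0.04) and tuft cell genes in 7 of 8 with a median of -0.19 (-0.27 to 0.023). The medians were 0.05 (-0.033 to 0.17) for NF-kB targets, -0.05 (-0.15 to 0.047) for p53 targets and apoptosis, 0.01 (-0.092 to 0.06) for hypoxia and glycolysis, 0.10 (-0.048 to 0.21) for immediate early genes, 0.12 (-0.08 to 0.25) for core clock genes and 0.04 (-0.017 to 0.12) for AMPK, mTOR and insulin signalling. They were 0.08 (0.042 to 0.15) for DNA methylation and histone deacetylase genes, 0.03 (-0.25 to 0.31) for endothelial markers, -0.08 (-0.10 to -0.048) for enteric neuron and glia markers, -0.11 (-0.21 to -0.086) for adipocyte markers, -0.03 (-0.17 to 0.062) for proximal colon position genes and 0.10 (-0.02 to 0.22) for sex-linked genes. No gene of these lists was called. With the Hoxd term the median turned to 0.12 for tuft cell genes, -0.18 for core clock genes, 0.06 for enteric neuron and glia markers, 0.03 for the unfolded protein response and heat shock, -0.04 for hypoxia and glycolysis, 0.014 for antimicrobial and Paneth genes and 0.0073 for Nrf2 targets, and that of the sex-linked genes lay just below 0.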
